A study of Mus musculus with 18 samples.

Results

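RNA sequencing compared the BNST (bed nucleus of the stria terminalis) between mice with persistent inflammatory pain and control mice. The libraries were taken by their labels, 3 from BNST 72 h after complete Freund's adjuvant (CFA) and 3 from control BNST, which makes 6 of the 18 libraries of the series. All animals were male wild-type C57BL/6 mice of 6 to 8 weeks, and by the methods the tissue came from 3 brains in each group. CFA, an oil emulsion with killed mycobacteria that inflames the injected paw for days, was given as 10 μL at 50%. By the labels and the methods the control mice had no injection, although legends of the study name them sham-treated, so the effect of the injection itself cannot be told apart from that of CFA. The other libraries came from BNST 24 h after 10 μL of 1% formalin and from the prelimbic medial prefrontal cortex (mPFC) under the same 3 conditions. Those from formalin-treated BNST shared the control libraries and served here for levels and for the spread. Of 55401 gene identifiers in the count table, 18994 had enough reads to be tested, and all of these were considered.

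The BNST is a group of mostly GABAergic nuclei of the extended amygdala that is linked to sustained anxiety-like states and to the control of stress hormone release. It lies beside the lateral ventricle with its choroid plexus, below and medial to the striatum, above the preoptic hypothalamus and in front of the thalamus and habenula, so a punch or slice of BNST can carry cells of any of these. Stress hormones of the adrenal cortex act in brain through the glucocorticoid receptor, a transcription factor whose targets include Fkbp5, Tsc22d3 and Sgk1. Chaperones fold proteins in the cytosol and in the endoplasmic reticulum (ER), and immediate early genes such as Egr1 and Arc are transcribed within minutes of neuronal firing.

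The BNST libraries held 14781315 to 16958300 counts in the control group and 17660487 to 20547436 after CFA, and levels are given as CPM, the counts of a gene relative to the scaled total of its library. Replicates of the BNST differed more than those of the mPFC. The chi-square per degree of freedom between libraries of a group was 8.015 to 78.53 for BNST pairs, of which both above 60 involved CFA replicate 2, and 3.803 to 10.75 for mPFC pairs. That library held 17906 CPM over 11 choroid plexus genes, against 222.5 and 183.7 CPM in the other CFA libraries and 36.77, 755 and 70.27 CPM in the controls. By the column names of the supplementary tables, lane 1 held control replicates 1 and 2, and lane 2 held control replicate 3 with all CFA libraries. Within lane 2, where 1 control BNST library remained and was assumed to vary like the other groups, 3129 genes passed.

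In the 18-library model, 2269 genes (11.9% of those tested) passed at an adjusted p under 0.05 from the quasi-likelihood test of edgeR and an absolute log2 fold change above 0.5. Of them, 928 were higher (4.89%) and 1341 lower (7.06%) after CFA, with a median log2 fold change of 0.014 over all genes tested. Protein-coding genes made up 1688 of the calls, and 258 were long intergenic or antisense RNAs. The 3 CFA libraries lay outside the range of the 3 control libraries for 5979 genes (31.5%), above it for 2921 (15.4%) and below it for 3058 (16.1%). A model of the 9 BNST libraries alone, which takes its spread from the BNST, called 1352 of 18157 genes (7.45%), and 1313 genes passed in both models (443 higher and 870 lower). The call did not hinge on any 1 of the 18 libraries for 1052 of the 2269 genes.

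Markers of the striatum were lower after CFA and made up 21 of the 1341 genes called lower (7.06% of all genes). All 21 tested markers of striatal projection neurons passed as lower, with a median log2 fold change of −2.55, and in each of them the 3 CFA libraries were below the 3 controls. Drd1, the D1 dopamine receptor (ENSMUSG00000021478.6, chr13:54051183-54055705, minus strand, GRCm38), had 101, 143 and 68.3 CPM in the controls and 21.1, 23.2 and 9.16 CPM after CFA. The groups did not overlap, and the log2 fold change was −2.55 ± 0.31 (SE, 3 against 3 libraries, adjusted p = 8.93e-05). Pde10a, the striatal phosphodiesterase, stood at 651, 1018 and 369 CPM in the controls and at 117, 110 and 90.6 CPM after CFA (log2 fold change −2.68 ± 0.28, adjusted p = 2.41e-05). Cd4, a T-cell coreceptor that was taken here as a marker of striatum, fell from 21.3, 34 and 11 CPM to 0.773, 1.28 and 0.376 CPM (−4.76 ± 0.40, adjusted p = 1.32e-06). The control libraries themselves spanned a wide range, and control replicate 3 was the lowest of the group for each of these 3 genes. In bulk tissue, fewer cells of a type and less RNA per cell cannot be told apart.

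Habenular markers moved the other way. Of 8 markers of the medial habenula, a small nucleus of the epithalamus, 7 rose, against 4.89% of all genes. The median log2 fold change was 1.98. Chrna3, a nicotinic acetylcholine receptor subunit, stood at 3.4, 4.54 and 2.29 CPM in the controls and at 10.2, 14.9 and 18.5 CPM after CFA (2.09 ± 0.29, adjusted p = 8.02e-05). Pou4f1, the transcription factor that specifies habenular neurons, was at 0, 1.59 and 0 CPM in the controls and at 4.53, 8.92 and 11.6 CPM after CFA, without overlap, and its call (adjusted p = 0.0174) was lost without control replicate 3. Gpr151, the remaining marker, was at 5.13, 8.73 and 0.681 CPM in the controls and at 13.8, 13 and 19.2 CPM after CFA, with an adjusted p of 0.0517. In the model of the 9 BNST libraries 4 of the 8 passed, and without control replicate 3 it was 5 of 8.

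Hypothalamic markers changed less evenly. Of 11 tested markers 2 rose, with 1 in the 9-library model, 4 without CFA replicate 2 and 1 to 6 over all fits with a library left out, and 10 further ones, among them Hcrt and Pmch, had too few reads to be tested. Trh, the thyrotropin-releasing hormone, was at 5.93, 9.58 and 3.16 CPM in the controls and at 24.1, 16.2 and 14.5 CPM after CFA (1.54 ± 0.34, adjusted p = 0.00442). Avp, vasopressin, was at 2.78, 3.46 and 0.371 CPM in the controls and at 24.7, 3.6 and 9.06 CPM after CFA, with the highest value in CFA replicate 1, and its call (adjusted p = 0.0298) was lost without that library or without control replicate 1 or 3. Oxt, oxytocin, stood at 56.6 CPM in CFA replicate 1 and at 13.3 and 10.6 CPM in the other CFA libraries, while the controls ranged from 1.86 to 24.8 CPM (adjusted p = 0.247).

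Among the other neighbours, 1 of 9 thalamic markers (Lef1, higher), 2 of 12 pallial markers (Neurod1 higher and Lamp5 lower) and 1 of 11 choroid plexus markers (Folr1, higher) passed. Folr1, a folate receptor, was at 2.65, 144 and 2.86 CPM after CFA and at 1.61, 7.03 and 1.86 CPM in the controls, and lost its call without CFA replicate 2 and in 16 of 18 fits with a library left out. These small counts were unstable, since the choroid plexus count was 8 under DESeq2 and 0 in the 9-library model, with 0 to 9 when a library was left out, and the thalamic count was 0 in the 9-library model and 0 to 4. Lef1 lost its call in 15 of the 18 fits. No ependymal marker passed among 9. Among 13 genes of the ventricular zone, where new neurons are born in the adult forebrain, 3 were lower. Mki67, a protein of dividing cells, was at 9.89, 6.18 and 11.9 CPM in the controls and at 1.21, 0.838 and 0.892 CPM after CFA (−3.25 ± 0.44, adjusted p = 9.58e-05). Top2a, a topoisomerase of dividing cells, and Dcx, a marker of migrating new neurons, also fell.

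**Figure D1:**
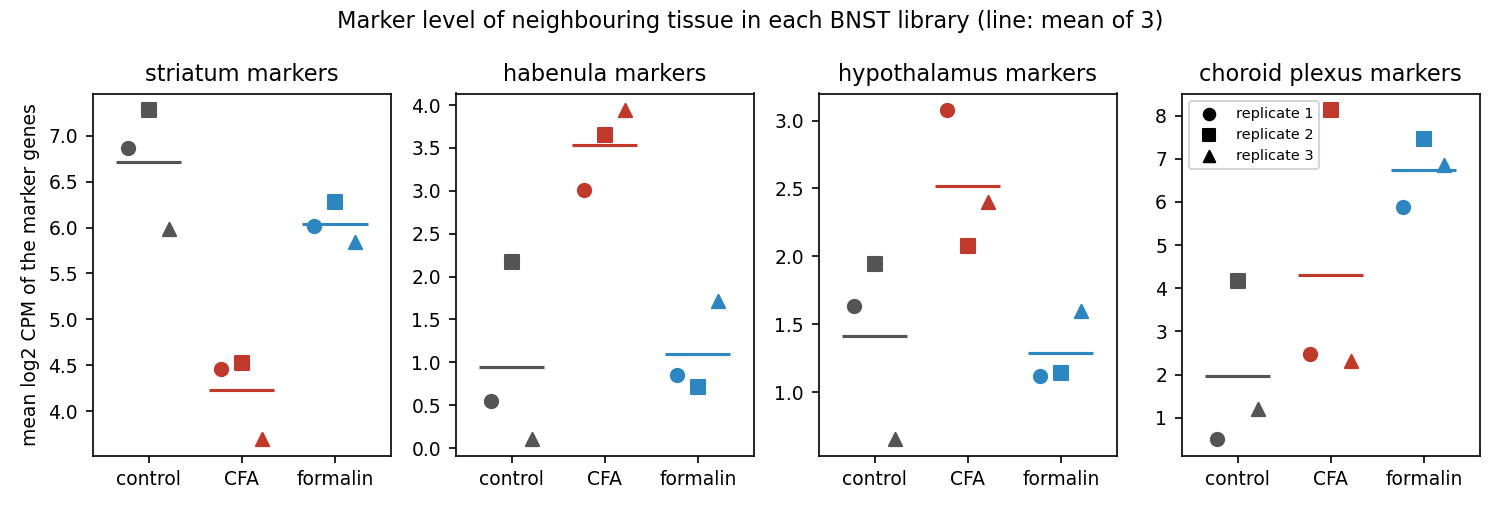
Mean log2 CPM of the markers of striatum, habenula, hypothalamus and choroid plexus in each of the 9 BNST libraries, by group (control, CFA, formalin), with symbols for replicates 1 to 3 and a line at the group mean. The striatal score was 5.99 to 7.28 in the controls, 3.70 to 4.53 after CFA and 5.84 to 6.28 after formalin, and the choroid plexus score of CFA replicate 2 was the highest of the 9 at 8.13.

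These scores separated CFA from control for striatum (5.99 to 7.28 in the controls, 3.70 to 4.53 after CFA) and for habenula (0.103 to 2.17 and 3.01 to 3.94). For hypothalamus the groups were also apart (0.653 to 1.94 and 2.08 to 3.08), and for choroid plexus they overlapped (0.505 to 4.18 and 2.31 to 8.13). Tissue content of striatum or habenula and the CFA condition coincided and cannot be told apart for the markers, and a model that holds a score as a term has little left with which to estimate either. With the striatal score as a term in the 9-library model no gene passed by edgeR (2667 at an unadjusted p under 0.05, smallest adjusted p = 0.243), and the median SE of the 2269 called genes grew from 0.22 to 0.567. With the habenular score no gene passed either (2277 at an unadjusted p under 0.05, smallest adjusted p = 0.0805). With the hypothalamic score 359 genes passed, and with the choroid plexus score 936. The size of the estimate was kept more often than the call. Of 2222 calls with an estimate, 2077 kept their sign with the striatal score, 1817 of them at no less than 50% of their size, and 2130 and 1773 did so with the habenular score.

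The striatal and habenular scores are means of their own markers, so the medians of these lists had to shrink with them, from −2.55 to −0.172 and from 1.98 to 0.247. With the striatal score the median was 1.15 for 15 glucocorticoid-responsive genes (1.18 in the 18-library model without a score), 0.746 for 12 heat shock genes (0.597) and 1.24 for 11 ER chaperones (0.698). With the habenular score these 3 medians were 1.08, 0.767 and 0.735. None of these estimates passed with either of the 2 scores, so they are sizes without a call. With the hypothalamic score 5 glucocorticoid-responsive genes, 1 heat shock gene and 0 ER chaperones passed, and with the choroid plexus score 9, 6 and 2. In all 4 models with a score, 1221 of the 2269 genes kept their sign and 50% or more of their change.

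**Figure D2:**
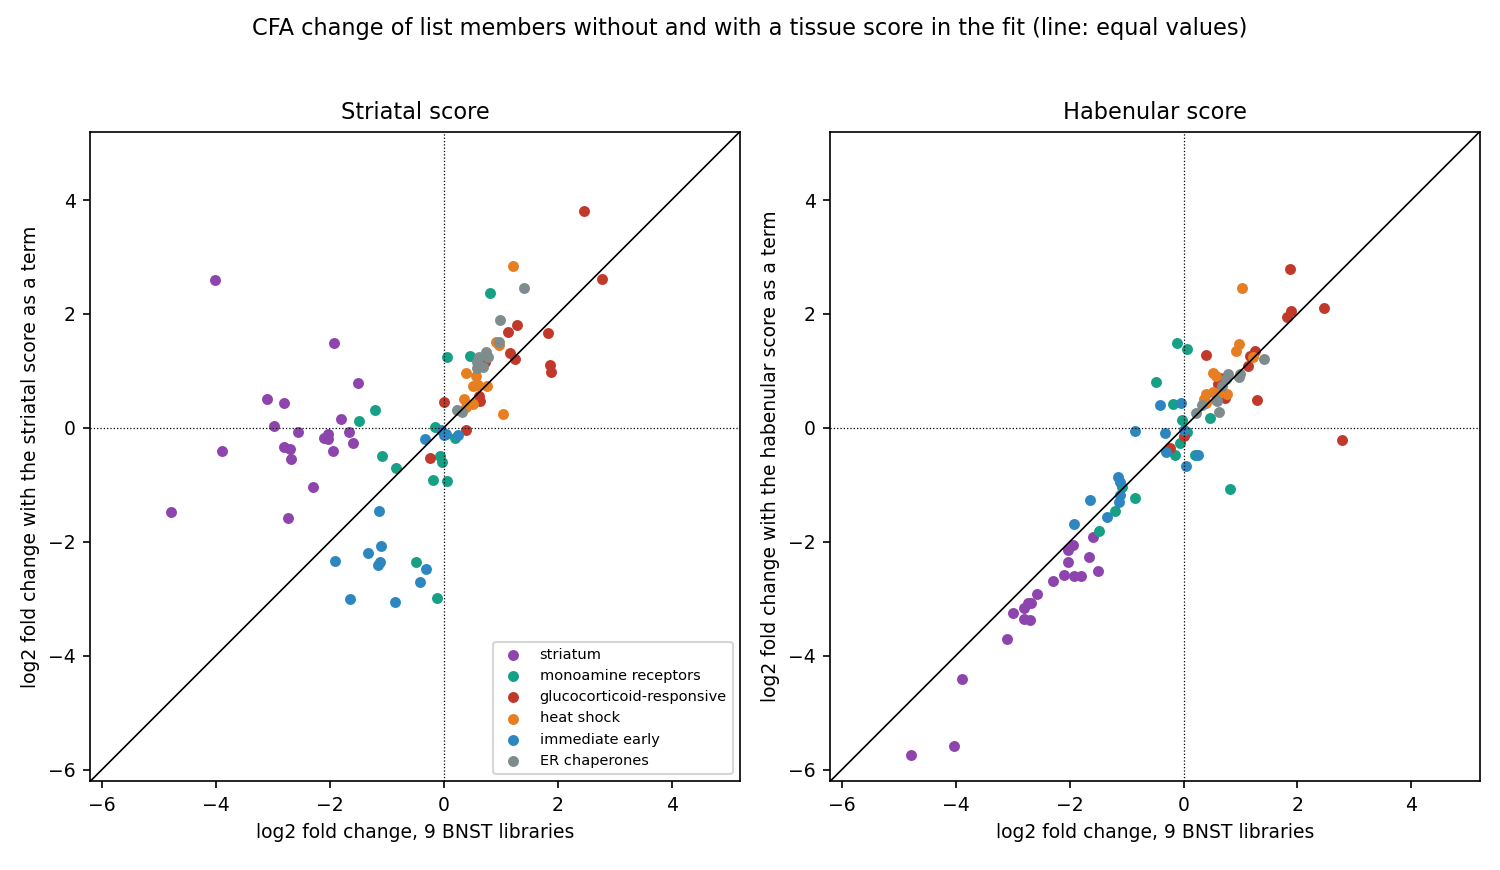
Log2 fold change after CFA for the members of 6 lists in the model of the 9 BNST libraries (horizontal axis) and with the striatal (left) or habenular (right) marker score as a term (vertical axis), 1 point per gene. With the striatal score the striatal markers scatter around a median of −0.172 (from −1.57 to 2.59), and the glucocorticoid-responsive genes lie on both sides of the diagonal (median 1.15), with Sgk1 at 3.80 and Hif3a at 0.98.

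A narrower set was taken from the calls in no tissue list that also passed in the 9-library model, had at least 5 CPM in the higher group, did not overlap between the groups and kept 50% of their change with each of the 4 scores. There were 687, of which 296 were higher and 391 lower. Since no gene passed with the striatal or habenular score, membership describes the size of an estimate and does not show that a change is free of tissue content. Plin4 (ENSMUSG00000002831.14, chr17:56100591-56109803, minus strand), a coat protein of lipid droplets, had 7.85, 2.32 and 4.02 CPM in the controls, 44, 76.1 and 35.6 CPM after CFA, and 4.83, 8.67 and 6.34 CPM after formalin. The CFA libraries were the only high ones of the 9. Fbxw23, annotated as a transcribed pseudogene, was at 0, 0.17 and 0.186 CPM in the controls. After CFA it was at 6.62, 6.45 and 5.16 CPM. Its neighbour Fbxw15 on chromosome 9 rose from 1.85, 2.04 and 2.79 to 8.88, 9.41 and 5.73 CPM. Both belong to a cluster of closely related copies among which reads may be split, so the values of each are uncertain. Ptgds, the prostaglandin D2 synthase that leptomeninges and choroid plexus also make, rose from 181, 209 and 114 to 541, 809 and 470 CPM (1.85 ± 0.30, adjusted p = 0.000801), with CFA replicate 2, the library with the most choroid plexus RNA, at the top. A2m, a protease inhibitor, was likewise highest in that library, at 109 CPM against 27.3 and 34.7 in the other CFA libraries. With the choroid plexus score as a term, the log2 fold change of Ptgds was 1.54 and that of A2m went from 2.51 to 1.61. The other highest members of the set were Gm19439 (log2 fold change 2.67), the growth factor Pdgfd (1.95), the transporter Abca8a (1.82) and the potassium channel subunit Kcng4 (1.68). Pdgfd too was highest in CFA replicate 2, at 28.1 CPM against 8.94 and 8.03 CPM in the other CFA libraries. With the choroid plexus score its log2 fold change was 1.08. Wfikkn2 (2.82) and Myoc (2.64) were among the largest rises of all calls but not in this set, and Wfikkn2 lost its call without CFA replicate 2 or control replicate 1 or 3.

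Among the 14 largest falls of that set were Akap5 and Itpka. Akap5, a scaffold that anchors protein kinase A and calcineurin at synapses, fell from 184, 159 and 241 CPM to 55.1, 63.8 and 30.5 CPM (−1.97 ± 0.22, adjusted p = 3.64e-05). Itpka, an actin-binding inositol trisphosphate kinase of dendritic spines, fell from 52.6, 51.3 and 60.9 CPM to 16.7, 17.6 and 11.8 CPM (−1.84 ± 0.15, adjusted p = 9.44e-07). In neither gene did the groups overlap. The transcripts with the largest falls in the set were Gm38413 (−3.13), Gm49702 (−2.70) and Gm19410 (−2.51), which have no assigned function. Krt9 (−2.22), Slc26a10 (−2.20), Muc3a (−2.03), 2700033N17Rik (−1.92), Ankdd1a (−1.85), Gm44846 (−1.83) and Gm11766 (−1.83) were further members. Outside this set, the 8 largest falls among calls without overlap and with at least 5 CPM were those of Cd4 (−4.76), Clspn (−4.49), a protein of DNA replication checkpoints, Adora2a (−3.87), the striatal adenosine receptor, Ankk1 (−3.44), a neighbour of Drd2, Mki67 (−3.25), Ptprv (−3.23), Top2a (−3.20) and Gm12992 (−3.18). D430036J16Rik (−2.08) is annotated as non-coding, and the strand setting of the counting is not given in the sources used here, so reads of an overlapping gene cannot be told apart. Klf16, a zinc-finger repressor chosen after its values were seen because it had the smallest p of all genes, fell from 51.7, 57.7 and 54.4 to 25.9, 26.8 and 25.8 CPM (log2 fold change −1.06).

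Most glucocorticoid-responsive genes of the list rose. Of 15 tested members, 12 passed as higher and none as lower, with a median log2 fold change of 1.18. Of the 12, 11 had CFA libraries wholly above the controls. Over all genes tested, 4.89% passed as higher and 15.4% had CFA libraries wholly above the controls. The list, like the others, was written with earlier results of these data known, so its counts are a description. Sgk1 (ENSMUSG00000019970.15, chr10:21882184-21999903, plus strand), a kinase that raises ion channel and transporter activity, stood at 60.3, 60.2 and 42.9 CPM in the controls, 241, 461 and 211 CPM after CFA and 109, 114 and 116 CPM after formalin. All CFA values were above all others (log2 fold change 2.48 ± 0.24, adjusted p = 1.05e-05). Tsc22d3, which encodes the anti-inflammatory protein GILZ, rose from 82.3, 46.7 and 47 to 128, 145 and 127 CPM (1.18 ± 0.17, adjusted p = 0.000246). Fkbp5, the co-chaperone that lowers the affinity of the glucocorticoid receptor, rose from 31.3, 29 and 32.9 to 46.7, 52.6 and 47.2 CPM (0.65 ± 0.12, adjusted p = 0.00124), and formalin libraries held 38.5, 26.8 and 26.9 CPM.

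The further members covered several functions. Cdkn1a, a cell cycle inhibitor, rose from 9.64, 7.31 and 9.84 to 23.9, 43.7 and 28.3 CPM. Hif3a, a hypoxia-inducible factor, rose from 4.02, 3.17 and 5.14 to 11, 18.4 and 16.8 CPM, and Zbtb16, a zinc-finger transcription factor, from 9.33, 6.69 and 12.9 to 25.6, 49 and 32.6 CPM. Their log2 fold changes were 1.84, 1.91 and 1.89. Sult1a1, a sulfotransferase, rose by 1.27, Nfkbia, the inhibitor of NF-kB, by 1.15, and Ddit4, an inhibitor of mTORC1, by 0.75. Arrdc2 was at 0.662 CPM in CFA replicate 1 and at 6.5 and 4.93 CPM in the others, overlapped with the controls (0.248 to 0.85 CPM), and lost its call without any 1 of 12 libraries. Per1 (−0.23, adjusted p = 0.0823), Mt1 (0.40, adjusted p = 0.165) and Klf9 (0.02, adjusted p = 0.903) did not pass. Nr3c1, the receptor itself, was at 131, 145 and 111 CPM in the controls and at 147, 140 and 142 CPM after CFA (0.15, adjusted p = 0.211).

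**Figure D3:**
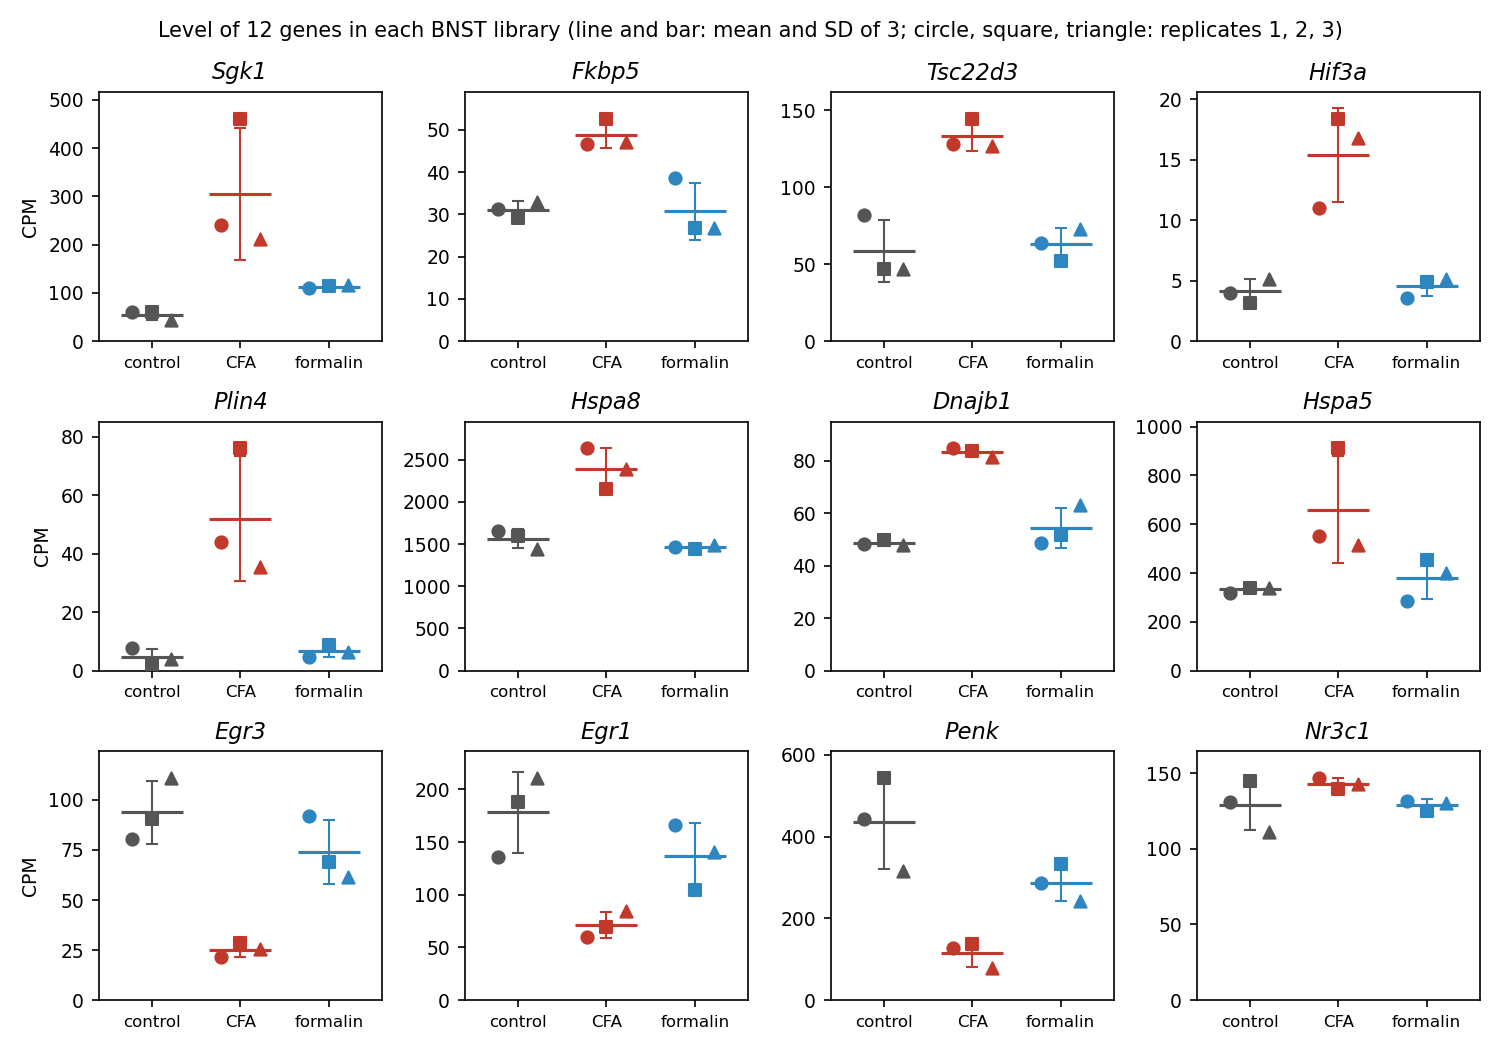
CPM of 12 genes in each of the 9 BNST libraries, by group (control, CFA, formalin), with the mean and SD of 3 libraries. For Sgk1, Plin4, Hif3a and Dnajb1 the 3 CFA libraries are above the other 6, for Egr3 and Penk they are below them, and for Nr3c1 the groups overlap.

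Genes of fasting and lipid use rose in part. Of 12 members, 5 passed as higher, against 4.89% of all genes, with a median of 0.71. Besides Plin4 (3.46 ± 0.36, adjusted p = 1.93e-05), Xdh, the xanthine dehydrogenase of purine breakdown, rose from 1.79, 1.36 and 1.61 to 5.57, 8.43 and 3.38 CPM (1.86 ± 0.39, adjusted p = 0.00297). The other 3 called members, Txnip, Acer2 and Ucp2, had adjusted p from 0.0252 to 0.0493. Each lost its call without CFA replicate 2, without control replicate 3 and without at least 1 more library (15 of 18 libraries for Ucp2). In the 9-library model 2 of the 12 passed, as they did without CFA replicate 2 or control replicate 3. Cpt1a, an enzyme of fatty acid import into mitochondria, had an adjusted p of 0.141.

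Chaperones of the cytosol and of the ER rose as well. Their promoters and that of Sgk1 are shown because they hold motifs known for these groups. Sequences are the 250 bases before the transcription start in RefSeq (GRCm38.p6), 5′ to 3′ on the strand of the gene, and capitals mark motif matches. The ER stress element was searched as CCAAT and CCACG with 9 bases between them, the heat shock element as GAA, TTC and GAA with 2 bases between neighbours, and the glucocorticoid response element as GNACA and TGTNC with 3 bases between them, each on both strands. Hspa5 (chr2:34771840-34772089, plus strand) has its match 65 bases before the start, Hsp90b1 (chr10:86705445-86705694, minus strand) has 2 matches, and Pdia6 (chr12:17266339-17266588, plus strand) has 1. The region of Hspe1 (chr1:55087898-55088147, plus strand) also lies before Hspd1, its neighbour on the other strand, and holds 2 overlapping heat shock element matches. The Sgk1 region (chr10:21993640-21993889, plus strand) precedes an internal start, and its match is the same on both strands.
Hspa5: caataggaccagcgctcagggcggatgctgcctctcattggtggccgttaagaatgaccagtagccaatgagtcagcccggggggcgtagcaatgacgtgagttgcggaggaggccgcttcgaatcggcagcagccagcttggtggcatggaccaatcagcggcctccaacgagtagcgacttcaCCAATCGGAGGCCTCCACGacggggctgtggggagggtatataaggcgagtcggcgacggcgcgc
Hsp90b1: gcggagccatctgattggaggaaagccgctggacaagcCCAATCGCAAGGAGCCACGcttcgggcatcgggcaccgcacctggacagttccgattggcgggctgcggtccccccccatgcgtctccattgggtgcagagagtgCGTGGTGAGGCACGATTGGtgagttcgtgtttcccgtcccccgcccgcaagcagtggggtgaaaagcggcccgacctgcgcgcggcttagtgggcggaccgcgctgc
Pdia6: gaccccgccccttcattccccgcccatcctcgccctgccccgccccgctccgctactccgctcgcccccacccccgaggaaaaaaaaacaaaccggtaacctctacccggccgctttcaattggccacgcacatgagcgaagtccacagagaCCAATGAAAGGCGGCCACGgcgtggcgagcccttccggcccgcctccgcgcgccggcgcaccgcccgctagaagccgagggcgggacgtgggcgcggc
Hspe1: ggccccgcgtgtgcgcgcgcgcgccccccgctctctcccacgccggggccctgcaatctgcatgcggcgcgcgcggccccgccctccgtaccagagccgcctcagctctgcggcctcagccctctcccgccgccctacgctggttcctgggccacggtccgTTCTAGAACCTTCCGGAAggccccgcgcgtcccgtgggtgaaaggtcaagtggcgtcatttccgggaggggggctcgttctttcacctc
Sgk1: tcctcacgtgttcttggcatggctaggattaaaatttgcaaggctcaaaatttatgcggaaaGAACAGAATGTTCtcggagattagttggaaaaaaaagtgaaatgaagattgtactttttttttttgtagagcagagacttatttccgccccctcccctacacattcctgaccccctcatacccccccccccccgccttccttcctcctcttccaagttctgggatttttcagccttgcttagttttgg
Of 9 ER chaperone genes with a promoter sequence, 5 held the ER stress element (Hspa5, Hsp90b1, Pdia6, Creld2 and Calr), against 0.164% of 12832 tested genes. The heat shock element was found in 2 of 10 heat shock genes (Hspe1 and Hspd1) against 0.46% of genes. These 2 genes share the same stretch of DNA, read from opposite strands, so they are not separate finds. The glucocorticoid response element was found in 3 of 14 glucocorticoid-responsive genes (Sgk1, Mt1 and Map3k6) against 0.343%. Over all 16360 promoters of these genes the shares were 0.134%, 0.379% and 0.293%. A match is a description of the letters and not evidence of binding.

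In the cytosol, 9 of 12 heat shock genes passed as higher and 11 had CFA libraries wholly above the controls. Of all genes tested, 4.89% and 15.4% did so. The median log2 fold change of the list was 0.597. Hspa8, the constitutive Hsp70 chaperone, was at 1660, 1595 and 1437 CPM in the controls and at 2637, 2148 and 2390 CPM after CFA (0.61 ± 0.10, adjusted p = 0.000288). Dnajb1, an Hsp40 cochaperone, was at 48.3, 49.7 and 47.9 CPM in the controls and at 84.8, 83.6 and 81.6 CPM after CFA (0.78 ± 0.09, adjusted p = 1.74e-05), whereas formalin libraries held 48.6, 51.7 and 63 CPM. Spread within both groups of Dnajb1 was small beside the difference. Hspb1, a small heat shock protein, rose by 1.24 and Bag3, a partner of Hsp70 in selective autophagy, by 0.94. Hspa1a and Hspa1b, the inducible Hsp70 genes, were called with log2 fold changes of 0.99 and 1.05, but they are near-identical copies and the split of reads between them is uncertain. Hspd1 (0.38), Dnaja1 (0.41) and Hsph1 (0.41) had adjusted p under 0.05 with changes below the threshold of 0.5. In CFA replicate 1 the summed level of the 12 genes was the highest, at 6723 CPM, against 5587 and 5602 CPM in the other CFA libraries and 3797 to 4390 CPM in the controls. Without that library 5 of the 12 genes passed.

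In the ER, 9 of 11 chaperones and quality control genes passed as higher, and all 11 had CFA libraries above the controls. The shares of all genes were 4.89% and 15.4%. The median of the list was 0.698. Hspa5 (ENSMUSG00000026864.13, chr2:34771970-34777547, plus strand), the Hsp70 of the ER, was at 319, 339 and 339 CPM in the controls and at 553, 911 and 516 CPM after CFA (0.99 ± 0.19, adjusted p = 0.00187). Manf, a secreted ER stress factor, rose from 35.7, 34.5 and 31.9 to 56.1, 99.1 and 50.5 CPM, and Sdf2l1, a partner of the ER Hsp70, rose by 1.43. CFA replicate 2 had the highest value for each of them. Without CFA replicate 2, 4 of the 11 genes passed, while 8 of the 12 heat shock genes did. The summed level of the ER list was 2061, 3126 and 1891 CPM after CFA, 1415 to 1435 CPM in the controls and 1243 to 1748 CPM after formalin, so the other CFA libraries also lay above the controls. With the choroid plexus score as a term in the 9-library model, the median was 0.43 and 2 of the 11 passed. For amino acid stress, 2 of 12 genes passed as higher (Psat1 and Atf5), and 1 did in the 9-library model. Atf5 lost its call without control replicate 3.

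Some immediate early genes went down in the BNST. Of 15 members, 6 fell and none rose, against 7.06% and 4.89% of all genes, with a median log2 fold change of −0.839. Egr3 (ENSMUSG00000033730.4, chr14:70077203-70082614, plus strand), a zinc-finger factor induced by synaptic activity, was at 80.2, 90.3 and 111 CPM in the controls and at 21.6, 28.5 and 25.4 CPM after CFA, and the formalin libraries held 91.9, 68.8 and 61.5 CPM. The groups were apart (−1.90 ± 0.16, adjusted p = 1.13e-06). Egr1 fell from 136, 188 and 211 to 59.6, 69.8 and 84.7 CPM (−1.32 ± 0.21, adjusted p = 0.000427). Egr4 (−1.62), Nr4a1 (−1.11), Junb (−1.10) and Arc (−1.09), the last a regulator of glutamate receptor traffic, also fell, and the calls of Junb and Arc were lost without control replicate 3, the control library with the highest values of both (Junb also without CFA replicate 1). Fos was at 12.8, 31 and 56.8 CPM in the controls and at 21.1, 27.7 and 33.6 CPM after CFA, so the CFA libraries lay within the range of the controls (−0.28, adjusted p = 0.686). Jun (0.03), Dusp1 (0.06), Nr4a3 (−0.03) and Npas4 (−1.13, adjusted p = 0.127) did not pass. Without control replicate 3, 4 of the 15 passed. With the striatal score as a term, the median of the list was −2.2, with the habenular score −0.669 and with the choroid plexus score −0.799. With the hypothalamic score it was −0.0879, and 1 of the 15 passed.

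Among neuropeptides of the BNST, 2 of 11 rose and 3 fell, against 4.89% and 7.06% of all genes. Penk (ENSMUSG00000045573.9, chr4:4133531-4138819, minus strand), the enkephalin precursor, fell from 443, 544 and 316 to 128, 137 and 77.7 CPM (−1.93 ± 0.22, adjusted p = 4.05e-05), and with the striatal score its log2 fold change was −0.14. Pdyn, the dynorphin precursor, fell from 50.2, 61.6 and 77.4 to 37.4, 33.1 and 18.2 CPM (−1.09, adjusted p = 0.0047), with −0.73 at the striatal score. Tac1, the substance P precursor, fell by 1.43 and turned to 0.77 with that score. Adcyap1, the precursor of PACAP, rose from 5.56, 9.01 and 2.85 to 15.7, 23.4 and 22.3 CPM (1.81), with 0.20 at the habenular score. Crh, corticotropin-releasing hormone, stood at 4.57, 5.33 and 9.66 CPM in the controls and at 11.3, 10.3 and 10.9 CPM after CFA (0.73, adjusted p = 0.0229, lost without CFA replicate 1 or control replicate 1 or 2), and did not pass in the 9-library model (adjusted p = 0.106). None of 16 genes of BNST receptors and steroid signalling passed in edgeR, and their adjusted p ran from 0.191 for the vasopressin receptor Avpr1a to 0.963 for the neuropeptide Y receptor Npy1r. Of 12 genes that mark the extended amygdala, 1 passed. Meis2, a homeobox factor that striatal neurons also express, fell from 209, 207 and 234 to 98.4, 96.6 and 65.1 CPM (−1.32 ± 0.12, adjusted p = 1.08e-06). The other 11, among them the GABA synthesis genes Gad1 and Gad2 and the factors Lhx8, Nkx2-1 and Zfhx3, were detected in both groups and none passed.

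Receptors and channels that passed were mostly lower. Of all genes, 7.06% passed as lower and 4.89% as higher. In the opioid list 4 of 7 genes fell (Penk, Pdyn and the receptors Oprd1 and Oprk1, the last at an adjusted p of 0.0473 that 14 of the 18 libraries could each undo). Oprd1 and Oprk1 turned to 0.50 and 0.71 with the striatal score, and 1 of the 7 passed with the 6 libraries compared. In the endocannabinoid list Cnr1, the CB1 receptor, fell from 210, 261 and 184 to 106, 100 and 125 CPM (−0.99 ± 0.14) while Napepld, an anandamide synthesis enzyme, rose by 0.84. Of 15 monoamine receptors, Adra2c, Htr1b and Htr1d fell, and with the striatal score the log2 fold changes of Adra2c and Htr1d became 0.12 and 0.31. Of 16 glutamate receptor genes 5 fell (median −0.348). Grm5, the metabotropic receptor mGluR5, was at 383, 332 and 560 CPM in the controls and at 214, 191 and 198 CPM after CFA (−1.08 ± 0.15), and Grin2b, Gria2, Grin1 and Gria1 fell by 0.85, 0.83, 0.65 and 0.53. The values of Grm5, Grin2b and Gria2 were highest in control replicate 3, the control library with the lowest striatal score, and their estimates with the striatal score were −1.91, −1.61 and −1.60. With the habenular score they were −0.28, −0.26 and −0.13.

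Of 14 voltage-gated calcium channel genes 4 fell (Cacna1e, Cacna1h, Cacna1b and Cacna2d3, median of the list −0.308), and of 11 sodium and pacemaker channel genes 1 (Scn3a), against 7.06% of all genes. Cacna1b and Scn3a lost their calls without CFA replicate 2, and Cacna2d3 turned to 0.47 with the striatal score. The potassium channel genes Kcnj4 and Kcnk2 fell by 1.88 and 1.10 in a list with a median of 0.11, and Kcnj4 turned to 0.14 with the striatal score. The GABA-A receptor gene Gabrg3 fell by 0.71 in a list with a median of 0.127. Among 16 synaptic vesicle genes Cplx2, Sv2c and Unc13a fell, while Vamp1 and Cplx1 rose. Cplx2, a complexin that clamps vesicle fusion, was at 916, 820 and 807 CPM in the controls and at 446, 425 and 385 CPM after CFA. Cplx1, its relative, was at 430, 388 and 265 CPM in the controls and at 555, 389 and 617 CPM after CFA, so the groups overlapped, and its call was lost without CFA replicate 1 or 3 or control replicate 3. Pcsk1, the prohormone convertase of dense core vesicles, rose from 34.2, 31.8 and 29.3 to 56.3, 56.6 and 56.4 CPM (0.83 ± 0.10), the 1 call among 11 genes of that list. Ntrk3, the neurotrophin-3 receptor, was the 1 call among 7 neurotrophin genes and fell by 0.69.

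**Figure D4:**
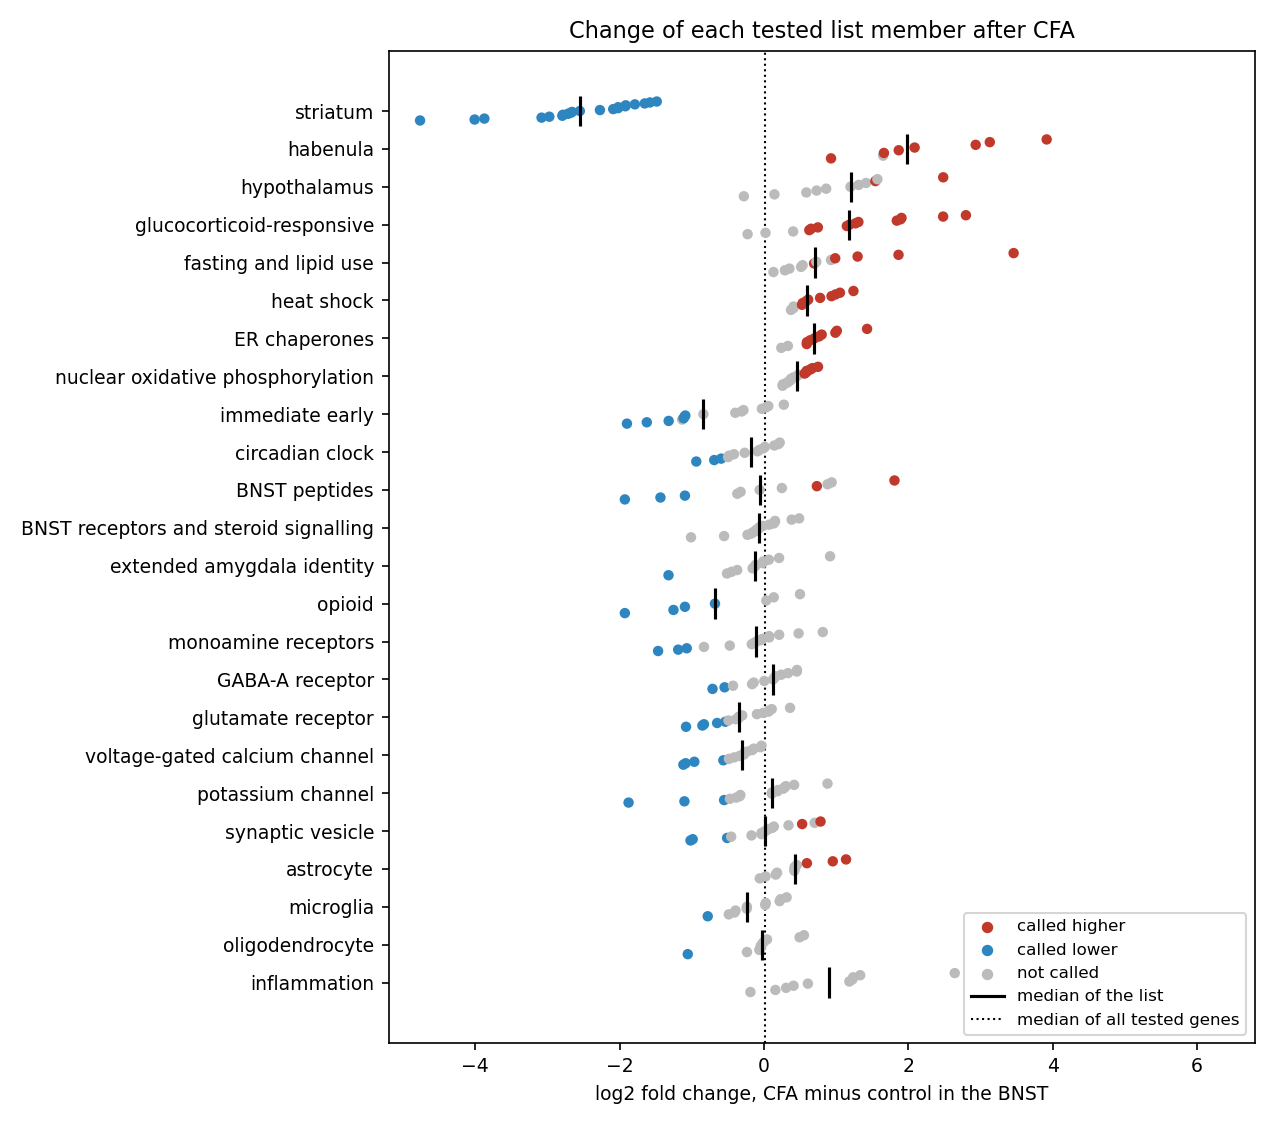
Log2 fold change after CFA in the BNST for every tested member of 24 of the 44 lists, 1 point per gene (red called higher, blue called lower, grey not called), with a bar at the list median and a dotted line at the median of all genes tested (0.014). Striatal markers are all blue, habenular markers and the glucocorticoid-responsive, heat shock and ER chaperone genes are mostly red, and 6 immediate early genes are blue.

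Glial lists changed in few members. Of 11 astrocyte genes 3 rose, against 4.89% of all genes. Gfap, the intermediate filament of reactive astrocytes, stood at 107, 96 and 152 CPM in the controls. It was at 234, 319 and 227 CPM after CFA and at 326, 240 and 244 CPM after formalin. Its log2 fold change after CFA was 1.14 ± 0.28 (adjusted p = 0.012, call lost without CFA replicate 2). Gjb6 and S100b rose by 0.95 and 0.59, and S100b lost its call without control replicate 3. In the 9-library model 2 of the 11 astrocyte genes passed. Of 11 microglial genes only Fcrls passed, falling from 24.5, 23.1 and 17.8 to 14.1, 11.4 and 12.6 CPM. In the oligodendrocyte list 1 of 10 fell (Opalin, call lost without CFA replicate 1 or 3 or control replicate 1), and none of 8 precursor genes passed. Among vascular genes Mfsd2a, the lipid transporter of the blood-brain barrier, rose by 0.88. Pdgfrb of pericytes fell by 0.60 (call lost without CFA replicate 2), and none of 8 fibroblast genes passed. Of 12 matrix genes Sparc rose by 0.67 (call lost without CFA replicate 1 or control replicate 3), and Agrn and Lama4 fell by 0.57 and 0.61, of which Agrn lost its call without CFA replicate 2 and Lama4 without any 1 of 13 libraries. In the 9-library model 0 of them passed as higher and 1 as lower.

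No inflammation gene passed among the 10 tested, and Il1b, Il6, Tnf, Ccl2, Cxcl1 and Selp had too few reads for a test. Their median log2 fold change was 0.896. Vcam1, an adhesion molecule of activated endothelium that choroid plexus also expresses, was at 21.3, 29.2 and 28.2 CPM in the controls and at 28.2, 132 and 23.7 CPM after CFA, and the list summed to 208 CPM in CFA replicate 2 against 44.7 to 54.6 CPM in the other 5 libraries. Among interferon-stimulated genes Usp18 rose by 1.44, and it did not pass without CFA replicate 1 or control replicate 1 or 3. Of 15 nuclear genes of oxidative phosphorylation 6 passed as higher and 13 had CFA libraries above the controls (median 0.452). Of all genes, 4.89% and 15.4% did so. Without control replicate 3, the lowest control for this list, 2 of the 15 passed. Cox7b, a subunit of cytochrome c oxidase, rose from 67.6, 53.9 and 49.5 to 91.9, 108 and 87.6 CPM (0.75 ± 0.12). None of the 13 mitochondrially encoded genes and none of 12 cholesterol synthesis genes passed.

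Of 14 clock genes 3 fell, against 7.06% of all genes. Dbp, a clock output factor, fell from 61.2, 79.1 and 48.3 to 33.2, 31.4 and 33.9 CPM (−0.94 ± 0.13, adjusted p = 7.62e-05), and Per3 and Npas2 fell by 0.69 and 0.59. Arntl (−0.06), Nr1d1 (−0.09) and Cry1 (0.01) did not pass. The hour of the day at which tissue was taken is not given in the sources used here. Cirbp, a cold-inducible RNA-binding protein, fell from 49.2, 56.3 and 66.7 to 35.7, 35.5 and 41.6 CPM (−0.61 ± 0.10, call lost without control replicate 3), while Rbm3, the other cold-inducible gene, was at −0.12 with an adjusted p of 0.632.

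To ask which of these changes were particular to the BNST, the change after CFA was compared with that in the mPFC. The column names carry a number after the region, which was read here as that of the animal but is not explained there. On that reading, animals 1 to 3 of the CFA group and animals 2 and 4 of the control group gave both regions. The control numbers were 1, 2 and 4 for the BNST and 2, 3 and 4 for the mPFC. The methods give 3 brains per group, so the reading is uncertain. The interaction test below held no term for the animal and treated all libraries as independent. Calls in both regions used the shared spread, with a common coefficient of variation of 0.152. For the libraries of 1 region alone it was 0.2 in the BNST and 0.0757 in the mPFC. Counts of calls in the regions are thus not on an equal footing. In the mPFC 120 genes passed (0.632%), 64 higher and 56 lower. Of these, 53 also passed in the BNST and 52 in the same direction (28 higher and 24 lower), which is 43.3% of the mPFC calls and 2.29% of the BNST calls. Plin4, Fbxw23, Gm19439, Cdkn1a, Sult1a1, Hif3a, Map3k6 and Dbp were among them. Per2, a period gene of the clock, rose in the mPFC (0.72) and stood at 33.9, 29.1 and 34 CPM in control BNST and 23.3, 25.4 and 24 CPM in BNST after CFA, with a log2 fold change of −0.41 (difference of the changes, adjusted p = 5.18e-05).

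The change differed between the regions for 792 genes (4.17%) by the interaction test of edgeR, 218 with a more positive and 574 with a more negative change in the BNST, and 626 of them were BNST calls. Striatal markers were not called in the mPFC, where their mean log2 CPM was 3.54 to 3.70 in the controls, against 5.99 to 7.28 in control BNST. Adora2a and Cd4 had means of 2.65 and 0.949 CPM in control mPFC, against 145 and 22.1 CPM in control BNST. With so little striatal RNA there, the lack of a call does not show that their change was particular to the BNST. Sgk1 rose more in the BNST than in the mPFC (adjusted p of the difference 0.0116), where it was at 50.5, 52.4 and 58.1 CPM in the controls and 101, 97.3 and 103 CPM after CFA. Fkbp5 changed more in the mPFC (log2 fold change 1.30, adjusted p of the difference 0.0421), from 18.5, 18.3 and 20.1 to 43.7, 53.6 and 42.6 CPM. In the glucocorticoid-responsive list 6 of 15 genes rose in the mPFC, with a median of 0.859, and in the heat shock list 1 of 12, with a median of 0.401. None of the ER chaperones passed in the mPFC (median 0.419), and a difference between the regions passed for none of the 11 (adjusted p from 0.168 to 0.979).

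The immediate early genes differed in part. No member passed in the mPFC, and the difference passed for Egr3 (mPFC 0.16, adjusted p of the difference 5.58e-05), Egr1 (0.0204) and Egr4 (0.0425), whereas for Nr4a1, Arc and Junb its adjusted p was 0.101, 0.0961 and 0.397. Egr3 in the mPFC was at 222, 264 and 234 CPM in the controls and at 285, 255 and 266 CPM after CFA. Grm5, Grin2b and Gria2 also differed (adjusted p of the difference 0.0039, 0.0369 and 0.0339), as did Cplx2, Akap5 and Itpka, and Meis2.

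**Figure D5:**
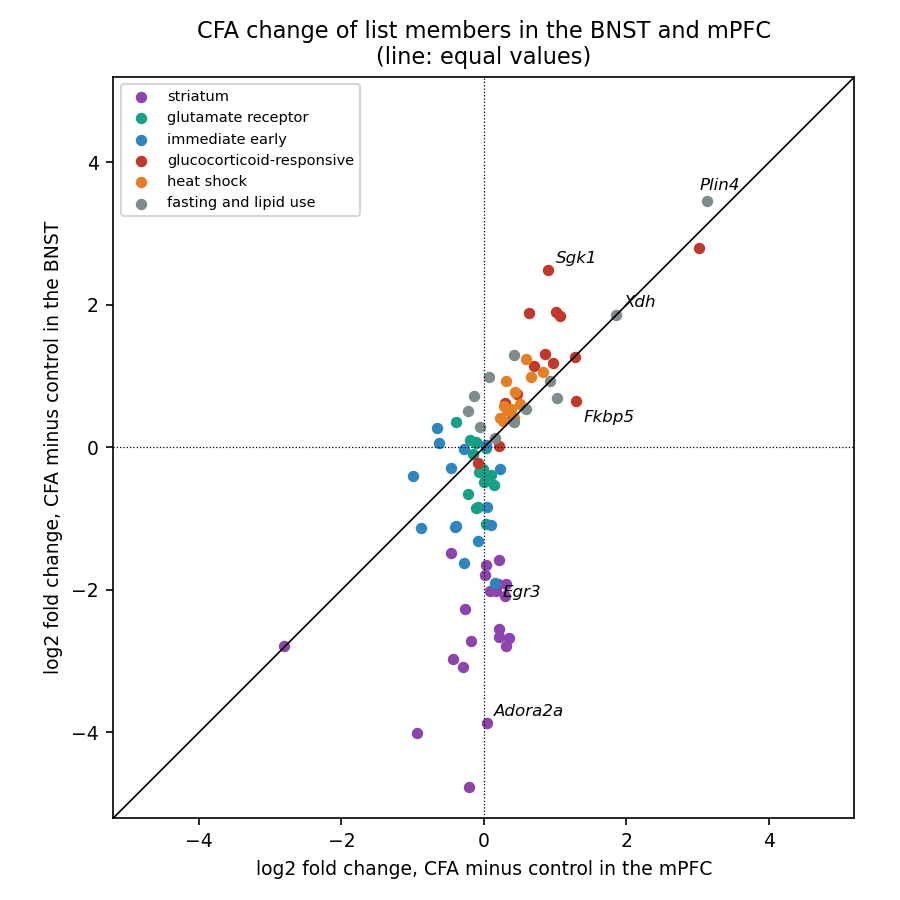
Log2 fold change after CFA in the mPFC (horizontal axis) and in the BNST (vertical axis) for the members of 6 lists, 1 point per gene. Plin4 and Xdh lie near the diagonal (3.13 and 3.46, 1.86 and 1.86), Sgk1 lies above it and Fkbp5 below it. Egr3 and the striatal marker Adora2a lie near 0 in the mPFC (0.16 and 0.04) and below 0 in the BNST (−1.90 and −3.87). Adora2a was low in the mPFC, with means of 2.65 CPM in the controls and 2.74 CPM after CFA.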

How the data were processed

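Messenger RNA was sequenced from the BNST and prelimbic mPFC of 3 control, 3 formalin-treated and 3 CFA-treated mice per region. Per the study's methods and the submitters' processing notes, the authors used Trimmomatic 0.39 on paired-end reads of 150 bp, HISAT2 2.2.1 for alignment to GRCm38, SAMtools 1.9 for sorting and featureCounts 2.0.1 for counting. The deposited values are whole counts per gene without normalization. The annotation release and the strand setting of the counting are not given in the sources used here. Symbols and positions came from GENCODE M21, and 260 identifiers had no symbol there.

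The counts were taken into edgeR 4.0.16 (R 4.3.3). Low counts were removed with filterByExpr (minimum count 10, minimum total 15) and libraries were scaled by TMM. One robust quasi-likelihood model held all 18 libraries and 6 groups, so the BNST and the mPFC shared an estimate of the spread. Contrasts were CFA minus control in the BNST, the same in the mPFC, and their difference. Calls needed an adjusted p (Benjamini-Hochberg) under 0.05 with a log2 fold change above 0.5 in either direction, as in the study. Tissue scores are means of log2 CPM (prior count 2) over the markers of a region and were added, 1 at a time, to a model of the 9 BNST libraries. The script was checked on simulated counts. The total of 14781315 to 23408503 counts per library and the 3 libraries per group limit the precision. The p-values measure against the spread between libraries, which holds that between animals and between dissections. In the 18-library model the common coefficient of variation between libraries of a group was 0.152. It was 0.2 for the BNST libraries alone and 0.0757 for the mPFC libraries alone. The 18-library p-values for the BNST thus rest on a smaller common spread than that of the BNST. Those for the mPFC rest on a larger one than that of the mPFC, and no fit of the mPFC libraries alone was run.

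Named genes were the 8 calls with the largest rise and the 8 with the largest fall (at least 5 CPM, no overlap of the groups), the 14 highest and 14 lowest of the narrower set defined in the results, up to 4 called members of each list, and the 5 largest region differences in each direction. Further list members were chosen outside this rule. They include called ones, such as Drd1, Fkbp5, Hspa8 and Dnajb1, and ones that did not pass. The results of some list members are not reported here. The members, lists and rules were chosen with earlier results of these data known. Alternatives were DESeq2 1.42.0, limma-voom (limma 3.58.1), RLE scaling, no filter and a stricter one (1 CPM in every library of a group), fits of 9 or 6 libraries or of lane 2, a replicate block, glmTreat, no minimum fold change, 4 tissue scores as terms, and leaving out each library. The authors tested with DESeq2 1.34; their test results are not used here. Lanes and the numbers taken as those of the animals were read from column names of supplementary tables by equal counts.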

Additional observations from a re-analysis of the deposited data

Results flagged for a closer look

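For 10 genes the change after CFA differed between the BNST and the mPFC by the interaction test of edgeR, with the largest differences of log2 fold change (BNST minus mPFC) among genes of at least 5 CPM outside the tissue lists. Groups of 3 libraries are too small for a test of single outlying samples, so none was made.

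The change was more positive in the BNST for 5 genes. The difference was 2.16 for Dnaaf3, an assembly factor of ciliary dynein arms (adjusted p = 0.0449), whose BNST change of 0.48 did not pass by itself. In the mPFC the means of Dnaaf3 were low, at 0.819 CPM in the controls and 0.249 CPM after CFA. Its mPFC change of −1.67 did not pass either. The difference was 2.13 for Gjc1, the gap junction protein connexin 45 (adjusted p = 0.0043). Gjc1 rose in the BNST from 4.2, 6.01 and 2.54 to 13.4, 8.77 and 12.2 CPM. Chdh, the choline dehydrogenase, differed by 2.03 (adjusted p = 0.0458) and Sh3d19 by 1.93 (adjusted p = 0.0355). For both the highest CFA library was replicate 2, at 39.8 and 141 CPM, against 12.4 and 12.1 CPM and 57.5 and 55.8 CPM in the others. Kcng4, a modifier subunit of potassium channels, differed by 1.86 (adjusted p = 0.0233).

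The change was more negative in the BNST for the other 5. Serpina9 differed by −4.03 (adjusted p = 0.0116) and Lrrc10b by −3.18 (adjusted p = 0.0056). With the striatal score as a term their BNST changes were 0.23 and 0.23. Both were low in the mPFC. The means there were 0.23 CPM in the controls and 0.547 CPM after CFA for Serpina9, and 1.88 and 3.43 CPM for Lrrc10b. Their mPFC changes of 1.25 and 0.87, which are part of the differences, did not pass. Gm49702 differed by −3.19 (adjusted p = 5.18e-05), and its BNST change with that score was −1.60. Epyc, a small proteoglycan of cartilage, differed by −3.10 (adjusted p = 0.00925) and Ptprv, a tyrosine phosphatase, by −3.06 (adjusted p = 0.0141). Their BNST changes with the striatal score were −0.50 and −0.94. In the mPFC the means of Epyc were 2.10 CPM in the controls and 2.52 CPM after CFA. Those of Ptprv were 0.687 and 0.628 CPM. The part of striatal tissue in these differences was not tested otherwise.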

How the results depend on the processing

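The 2269 calls in the BNST stayed within 1.5 times under DESeq2 (2394), limma-voom (2197), RLE scaling (2264), no filter (1961) and a stricter filter (2200). Lane 2 alone, with 1 control BNST library whose spread is taken from the other groups, gave 3129. They moved to 4310 without a minimum fold, 445 under glmTreat, 1352 with the 9 BNST libraries, 776 with the 6 libraries compared, and 1090 with the 9 without CFA replicate 2, an alternative chosen after seeing the data. With a tissue score as a term they were 0 (striatum), 0 (habenula), 359 (hypothalamus) and 936 (choroid plexus). Leaving out a library gave 1647 (control replicate 3) to 2744 (CFA replicate 3). Replicate numbers were not taken to pair CFA with control in the BNST, since residuals of same-numbered libraries correlated at 0.122, 0.0338 and −0.0567, and a replicate block gave 2183 calls. Between the regions, CFA libraries of the same replicate number also shared the number in the column names, while control replicates 1 and 2 did not. If that number marks the animal, the replicate block does not stand for it in the controls. No fit with a term for the animal was run.

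Of the named genes and list members, 119 were called. Of the 119, 61 passed under glmTreat, 74 with 6 libraries and 114 under the block. With a score as a term, 0 (striatal or habenular), 42 (hypothalamic) and 78 (choroid plexus) passed. With a library left out it was 100 to 115. The 792 region differences were 154 under glmTreat, 742 under the block, and 497 (without mPFC CFA replicate 1) to 895 when a library was left out.

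Among these 119 genes some log2 fold changes turned, and other called genes are not covered here. Folr1 was −0.35 in the 8-library fit and ran from −0.36 (without CFA replicate 2) to 4.84 (without control replicate 2) when 1 library was left out. With the striatal score Ptpn7 was 2.59, Scn4b 0.50, Tac1 0.77, Oprd1 0.50, Oprk1 0.71, Adra2c 0.12, Htr1d 0.31, Cacna2d3 0.47 and Kcnj4 0.14. With the habenular score Pou4f1 was −0.96, Chrnb3 −1.50, Lef1 −0.17 and Arrdc2 −0.21, and Avp was −0.18 with the hypothalamic score. These scores are built in part from Ptpn7, Scn4b, Pou4f1, Chrnb3 and Avp themselves. The cause was not tested for the others. The depth limits genes with few reads, such as the 10 hypothalamic markers that could not be tested.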
